A study of Homo sapiens with 16 samples.

Results

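The 9 genes described here encode ligands, receptors and intracellular transducers of the TGF-beta family: TGFB1, TGFB2, TGFB3, INHBA, TGFBR1, TGFBR2, TGFBR3, SMAD3 and SMAD7. They are the rows of the deposited count table that carry these symbols, 9 of 35993 gene symbols, and their values were taken in all 16 libraries. RNA was sequenced from 4 established bladder cancer (BC) cell lines of human origin (253J, J82, RT112 and TCCSUP), wild type in the labels, after 48 h with CM-1758, a histone deacetylase (HDAC) inhibitor, or with vehicle. Treated cultures received CM-1758 at the inhibitory concentration (IC50) determined for that cell line, so the dose could differ between cell lines, and control cultures received 0.01% DMSO. Each of the 8 groups of cell line and treatment held 2 libraries, numbered 2 and 3 (control) and 1 and 3 (treated) in 253J, 1 and 3 in J82, and 1 and 2 in RT112 and TCCSUP. The study describes the 2 libraries of a group as separate biological replicates. Libraries were made from total RNA depleted of ribosomal RNA. TCCSUP was grown in another medium (EMEM) than the other 3 cell lines (DMEM), so medium and cell line cannot be told apart, and each cell line descends from 1 tumor.

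TGF-beta ligands are secreted in a latent form and, once released, bind a complex of type II (TGFBR2) and type I (TGFBR1) receptor kinases, with betaglycan (TGFBR3) as a co-receptor that presents ligand, TGFB2 above all. INHBA encodes the subunit of activin A, a related ligand that signals through its own receptors but uses the same transducers. The type I receptor phosphorylates SMAD2 and SMAD3, which enter the nucleus with SMAD4, while SMAD7 is an inhibitory SMAD that is induced by the pathway and acts back on the receptor. In urothelium and its tumors the pathway is known for growth arrest in epithelial cells and for matrix production and epithelial to mesenchymal change in invasive cells.

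Total counts per library ran from 22506431 to 32537104, and 21297 genes passed a filter on low counts, all 9 TGF-beta genes among them. Levels are given in CPM, the count of a gene scaled to a common library total with edgeR's TMM factors. Differences are log2 fold changes of treated over control with their standard error (SE), from the quasi-likelihood test of edgeR. A gene was called higher or lower where its p, adjusted by Benjamini and Hochberg's method over all tested genes, was under 0.05. Of the 14 urothelial and epithelial markers, 14 were above 1 CPM in RT112 controls, against 7 in 253J, 8 in J82 and 10 in TCCSUP controls. EPCAM was at 0.467 CPM and GATA3 at 0.374 CPM in 253J controls, beside KRT18 at 2327, KRT19 at 877, KRT8 at 365 and CDH1 at 181 CPM. The T and B cell markers CD3E and CD79A were at 0 in every control group. Of the other leukocyte markers, CD68 ran from 3.59 CPM in RT112 controls to 46.5 CPM in J82 controls. TCCSUP controls held CD14 at 11.1 CPM and PTPRC at 9.58 CPM. The summed level of the 10 fibroblast and mesenchymal markers ran from 8297 to 8402 CPM in TCCSUP controls and from 804 to 919 CPM in treated TCCSUP cells. It was also lower with CM-1758 in the other 3 cell lines. J82 controls held 4175 to 4332 CPM against 2518 to 2795 CPM in treated cells. For 253J it was 1837 to 2230 CPM against 1439 to 1576 CPM, and for RT112 1337 to 1371 CPM against 858 to 928 CPM. These sums follow the most abundant markers, and single markers moved both ways. In RT112, LUM fell from 1347 to 846 CPM and FAP was lower, while the other markers of the list were higher. In 253J, all but VIM and CDH2 were higher, each at under 1 CPM. PDGFRA, PDGFRB and LUM were higher in J82, and VIM in TCCSUP. The summed epithelial markers ran from 1339 to 1460 CPM in TCCSUP controls against 519 to 602 CPM in treated cells, from 3193 to 4344 CPM against 1879 to 2371 CPM in 253J, from 8239 to 8639 CPM against 6308 to 7087 CPM in RT112, and from 5970 to 8103 CPM against 6973 to 7892 CPM in J82, where the groups overlapped. By chi-square per degree of freedom over genes, the 2 J82 control libraries were the least alike of the 8 pairs, at 73.1 against 11.7 to 49.2 in the other pairs. By Pearson correlation of log2 CPM they were not: J82 controls were at 0.986, above treated TCCSUP (0.983), J82 (0.984) and RT112 (0.985).

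With CM-1758, 20 of the 36 combinations of gene and cell line were called, and in 0 of those 20 did the replicates of the 2 groups overlap. The calls rest on the same libraries, so the lack of overlap is a description and adds no support. Its share over all tested genes was not computed. INHBA rose the most, from 5.51 to 138 CPM in J82 (means, n = 2), and TGFB2 fell the most, from 606 to 34.1 CPM in TCCSUP. In 253J, 2 of the 9 genes were higher and 4 lower, where 28.8% of all tested genes were higher and 22.4% lower. Of the same 9 genes in J82, 4 were higher and 1 lower, against 24% and 18.5% of all tested genes. RT112 had 3 higher and 0 lower, against 27.4% and 20.2%. TCCSUP had 3 higher and 3 lower, against 32% and 22.1%. With 9 genes, nothing particular to them is read from these counts. At the study's thresholds, an adjusted p under 0.01 and a log2 fold change past 2 in either direction, the 9 genes gave 2 calls in 253J (TGFB3 lower, INHBA higher), 2 in J82 (INHBA and TGFBR2 higher), 1 in RT112 (INHBA higher) and 2 in TCCSUP (TGFB2 lower, TGFBR3 higher), where 12.9%, 10.1%, 12.8% and 17.5% of all tested genes passed. The median log2 fold change of the 9 genes was -0.41 in 253J and 0.45 in J82, with 0.21 in RT112 and -0.04 in TCCSUP, beside 0.10, 0.05, 0.12 and 0.20 over all tested genes. None of the 9 genes was called in the same direction in all 4 cell lines. Of the 9, 2 were higher in some cell lines and lower in another, the receptors TGFBR2 and TGFBR3. How often either pattern held over all tested genes was not computed.

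The sequences just before the transcription start are shown for the 4 genes that have a single start in the RefSeq promoter table (GRCh38.p14): INHBA and TGFB2, the genes with the largest rise and fall, TGFBR3, and TGFB1. Each is the 250 bases before the start, written 5′ to 3′ on the gene's strand, with the letters searched for in capitals. These were CAGAC (a SMAD binding element), GTCTAGAC (a palindromic SMAD element), TGANTCA (an AP-1 element), GGGCGG (a GC box) and CCAAT, on both strands, and none of the 5 contains another.
INHBA (chr7:41703091-41703340, minus strand): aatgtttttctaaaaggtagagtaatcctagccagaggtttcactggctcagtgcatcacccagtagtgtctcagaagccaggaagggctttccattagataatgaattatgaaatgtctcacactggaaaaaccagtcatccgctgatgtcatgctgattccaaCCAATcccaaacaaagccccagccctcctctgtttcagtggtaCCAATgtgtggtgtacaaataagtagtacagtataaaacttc
TGFB2 (chr1:218345086-218345335, plus strand): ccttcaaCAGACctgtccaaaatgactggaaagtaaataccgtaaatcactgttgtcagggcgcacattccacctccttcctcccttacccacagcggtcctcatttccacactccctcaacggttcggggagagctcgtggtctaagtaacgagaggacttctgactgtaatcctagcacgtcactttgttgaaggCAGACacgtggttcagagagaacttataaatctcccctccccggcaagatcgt
TGFBR3 (chr1:91886152-91886401, minus strand): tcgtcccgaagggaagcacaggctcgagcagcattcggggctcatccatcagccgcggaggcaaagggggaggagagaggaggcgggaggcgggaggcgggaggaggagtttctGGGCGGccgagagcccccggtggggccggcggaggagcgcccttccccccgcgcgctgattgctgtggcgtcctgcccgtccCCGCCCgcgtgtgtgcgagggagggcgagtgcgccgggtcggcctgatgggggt
TGFB1 (chr19:41353923-41354172, minus strand): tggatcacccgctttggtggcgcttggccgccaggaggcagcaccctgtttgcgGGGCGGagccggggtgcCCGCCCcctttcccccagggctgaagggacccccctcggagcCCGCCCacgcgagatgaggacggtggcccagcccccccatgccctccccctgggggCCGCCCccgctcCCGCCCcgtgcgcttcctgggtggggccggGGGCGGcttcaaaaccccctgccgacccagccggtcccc

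The capitals mark 2 CCAAT in INHBA, 2 CAGAC in TGFB2, 2 GGGCGG in TGFBR3 and 6 GGGCGG in TGFB1, counting both strands. None of the 4 windows held GTCTAGAC or TGANTCA. Over all 24 RefSeq starts of the 9 genes, CAGAC was in 10, GGGCGG in 8, CCAAT in 9, TGANTCA in 1 and GTCTAGAC in 0. Among all 35116 promoters of the table, 38.0% held CAGAC, 42.6% GGGCGG, 32.0% CCAAT, 6.57% TGANTCA and 0.182% GTCTAGAC. A match describes the letters in this window and is no evidence of binding.

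Among the ligands, TGFB1, the best studied isoform, was higher with CM-1758 in 253J and RT112. In 253J, it was at 14.4 and 17.0 CPM in control and at 38.9 and 35.4 CPM in treated cells, with no overlap, a 2.36-fold rise (log2 1.24 ± 0.18 SE, n = 2 per group, adjusted p = 4.38e-05). RT112 controls held 11.2 and 12.5 CPM and treated cells 16.7 and 16.3 CPM, a 1.39-fold rise (log2 0.48 ± 0.18, adjusted p = 0.0426). Both treated groups thus lay above their controls, the RT112 rise being small. J82 had the lowest TGFB1, with 1.33 and 1.05 CPM in control and 2.00 and 1.25 CPM in treated cells (adjusted p = 0.181), and the groups overlapped. Without J82 treated replicate 3, the J82 change was called (log2 0.75, adjusted p = 0.0439). TCCSUP held 14.8 and 14.7 CPM in control and 11.8 and 13.9 CPM in treated cells (adjusted p = 0.383). The control level in J82 was 13.1-fold below 253J, 9.91-fold below RT112 and 12.4-fold below TCCSUP (adjusted p = 2.59e-09, 8.64e-09 and 6.68e-09), and the other 3 cell lines did not differ beyond their spread (adjusted p from 0.0740 to 0.738). The change in 253J was larger than in RT112 by 0.76 ± 0.26 on the log2 scale (adjusted p = 0.0361) and larger than in TCCSUP by 1.44 ± 0.26 (adjusted p = 6.93e-04). The RT112 call is the weakest of the 20: it was lost when any of the 4 RT112 libraries, 253J treated replicate 1 or 3, or TCCSUP control replicate 1 or 2 was left out (highest adjusted p 0.207), and with no filter on low counts (adjusted p = 0.0723).

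TGFB2, the isoform that depends most on betaglycan for binding, differed by up to 1529-fold between control cell lines and fell in TCCSUP. In TCCSUP, it was at 657 and 555 CPM in control and at 32.0 and 36.2 CPM in treated cells, a 17.7-fold fall (log2 -4.15 ± 0.22, adjusted p = 3.73e-09). Every treated TCCSUP library lay far below both controls. J82 held nearly as much in control, 559 and 542 CPM, and 457 and 414 CPM in treated cells, which do not overlap but did not pass the test (log2 -0.34 ± 0.19, adjusted p = 0.172). RT112 had 3.66 and 5.29 CPM in control and 5.56 and 4.195 CPM in treated cells, and 253J had 0.217 and 0.575 CPM in control and 0.792 and 0.641 CPM in treated cells, 6 to 20 counts per library (adjusted p = 0.701 and 0.110). The 253J change, log2 0.85, was called higher without 253J control replicate 3 (log2 1.69, adjusted p = 0.0211) and with library size alone (log2 1.12, adjusted p = 0.0437). Control levels of J82 and TCCSUP did not differ beyond their spread (adjusted p = 0.607), both were above RT112 by 123-fold and 135-fold, and RT112 was 11.3-fold above 253J (adjusted p = 2.66e-07). The change in TCCSUP differed from that in each of the other 3 cell lines by 3.81 to 5.00 on the log2 scale (highest adjusted p 2.52e-06). TGFB2-OT1, a separate row of the table, lies on the same strand and shares 1371 exon bases with TGFB2, so reads there could be counted for either gene. Its log2 fold change in TCCSUP was -3.25 (adjusted p = 0.00519). The summed fibroblast and mesenchymal markers were lower in the same TCCSUP libraries, as given above. Their part in the fall of TGFB2 was not tested.

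TGFB3, the third isoform, fell in 253J, the cell line that held the most of it. In 253J, it was at 7.32 and 8.70 CPM in control and at 0.713 and 0.877 CPM in treated cells, a 9.98-fold fall (log2 -3.32 ± 0.41, adjusted p = 8.19e-06). The control level of 253J was 6.24-fold above J82, 5.43-fold above RT112 and 4.37-fold above TCCSUP (highest adjusted p 2.11e-04), while those 3 did not differ beyond their spread (adjusted p from 0.317 to 0.744). J82 held 1.10 and 1.45 CPM in control and 1.04 and 0.474 CPM in treated cells, RT112 0.948 and 2.00 CPM against 0.861 and 0.877 CPM, and TCCSUP 1.82 and 1.84 CPM against 2.21 and 1.89 CPM, none of which passed the test (adjusted p = 0.169, 0.151 and 0.752). Without RT112 control replicate 1, the RT112 change was called lower (log2 -1.20, against -0.76 with all libraries, adjusted p = 0.0447). In 253J, the change was lower than in each of the other 3 cell lines by 2.56 to 3.48 on the log2 scale (highest adjusted p 0.00401). The treated 253J values rest on 18 and 26 counts.

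INHBA, the activin A subunit, rose in 3 of the 4 cell lines, TCCSUP being the exception. In J82, it was at 6.76 and 4.25 CPM in control and at 144 and 132 CPM in treated cells, a 25.1-fold rise (log2 4.65 ± 0.29, adjusted p = 4.13e-08). 253J went from 17.0 and 18.7 CPM to 119.5 and 86.9 CPM, a 5.78-fold rise (log2 2.53 ± 0.26, adjusted p = 1.70e-06), and RT112 from 6.54 and 4.57 CPM to 29.7 and 47.1 CPM, a 6.90-fold rise (log2 2.79 ± 0.28, adjusted p = 1.79e-06). In these 3 cell lines every treated library lay above every control library. TCCSUP held 16.4 and 16.7 CPM in control and 13.1 and 19.2 CPM in treated cells, with the groups overlapping (log2 -0.04 ± 0.26, adjusted p = 0.926). The rise in J82 was larger than in 253J by 2.12 ± 0.37 and than in RT112 by 1.86 ± 0.38 on the log2 scale (adjusted p = 5.02e-04 and 0.00256), the rises in 253J and RT112 did not differ beyond their spread (difference -0.26 ± 0.37, adjusted p = 0.702), and all 3 differed from TCCSUP (highest adjusted p 9.80e-05). In controls, 253J and TCCSUP formed the higher pair and J82 and RT112 the lower pair, 2.98 to 3.24-fold apart (highest adjusted p 2.20e-04), with no difference beyond the spread within either pair (adjusted p = 0.795 and 1). INHBA-AS1 lies on the opposite strand and shares 0 exon bases with INHBA.

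Levels of different genes can be set beside each other only per length, so CPM was divided by the kilobases covered by all exons of the gene in the GENCODE annotation. On that scale TGFB1 made up 65.4% to 66.0% of the summed level of the 3 TGF-beta isoforms in 253J controls and 96.6% to 97.1% in treated 253J cells, while TGFB3 went from 33.4% in both control libraries to 1.78% and 2.39%. In J82, TGFB2 made up 98.8% to 99.2% of the sum in all 4 libraries. RT112 was mostly TGFB1, 71.9% to 79.1% in control and 81.1% to 83.7% in treated cells. TCCSUP changed the most in makeup: TGFB2 made up 94.9% to 95.6% of the sum in control and 55.6% to 55.7% in treated cells, with TGFB1 at 3.94% to 4.57% in control and 37.4% to 39.0% in treated cells. In TCCSUP, TGFB1 itself did not pass the test, as given above. INHBA per length was at 20.9 ± 1.22 CPM per kb in treated J82 cells (mean ± SD, n = 2), beside 86.2 ± 5.99 CPM per kb for TGFB2 in the same libraries.

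**Figure D1:**
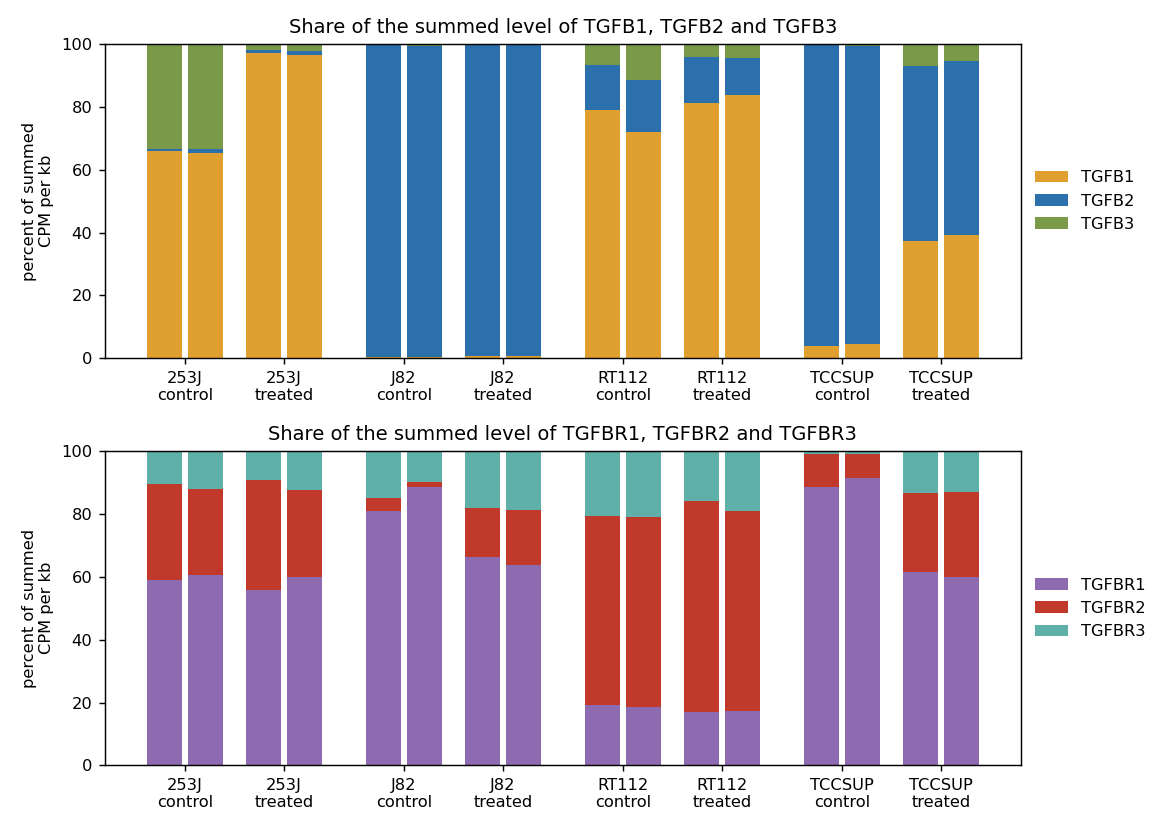
Share of each of the 3 TGF-beta isoforms in their summed level (top) and of each of the 3 receptors in theirs (bottom), in percent of summed CPM per kb, 1 bar per library in order of replicate number. TGFB2 filled 94.9% to 95.6% of the ligand bar in TCCSUP controls and 55.6% to 55.7% with CM-1758, and TGFBR2 filled 1.88% to 4.11% of the receptor bar in J82 controls and 15.6% to 17.6% with CM-1758.

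Among the receptors, TGFBR1, the type I receptor kinase, fell in 253J and TCCSUP. In 253J, it was at 182 and 202 CPM in control and at 77.6 and 96.3 CPM in treated cells, a 2.21-fold fall (log2 -1.14 ± 0.15, adjusted p = 1.82e-05). TCCSUP went from 203 and 207 CPM to 96.2 and 95.2 CPM, a 2.14-fold fall (log2 -1.10 ± 0.15, adjusted p = 2.78e-05). These 2 changes were of nearly the same size, with a difference of -0.04 ± 0.21 on the log2 scale (adjusted p = 0.9999). J82 held 261 and 248 CPM in control and 277 and 206 CPM in treated cells, and RT112 96.7 and 102 CPM in control and 96.3 and 97.2 CPM in treated cells, so neither passed the test (adjusted p = 0.755 and 0.881). Both falls differed from J82 and from RT112, by 1.03 to 1.10 on the log2 scale (highest adjusted p 0.00291). The control level of RT112 was the lowest, 1.93-fold below 253J, 2.06-fold below TCCSUP and 2.56-fold below J82 (highest adjusted p 7.54e-05).

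TGFBR2, the type II receptor kinase that binds ligand, moved in opposite directions: lower in 253J, higher in J82 and TCCSUP. In J82, it was at 9.42 and 3.74 CPM in control and at 46.4 and 40.4 CPM in treated cells, a 6.60-fold rise (log2 2.72 ± 0.28, adjusted p = 3.29e-06). TCCSUP went from 17.1 and 12.4 CPM to 27.6 and 30.5 CPM, a 1.97-fold rise (log2 0.98 ± 0.27, adjusted p = 0.00616). In 253J, it was at 67.0 and 65.0 CPM in control and at 34.5 and 31.7 CPM in treated cells, a 2.00-fold fall (log2 -0.997 ± 0.26, adjusted p = 0.00455). The groups did not overlap in any of these 3 cell lines. RT112, with the highest control level, held 216 and 234 CPM in control and 269 and 254 CPM in treated cells (log2 0.21 ± 0.25, adjusted p = 0.514). All 6 pairs of control levels differed, in the order RT112, 253J, TCCSUP, J82, with 34.3-fold between RT112 and J82 and 2.24-fold between the closest pair, TCCSUP and J82 (adjusted p = 0.00299). Effects differed in 5 of 6 pairs, the exception being RT112 and TCCSUP (adjusted p = 0.141), and 253J was below J82 by 3.72 ± 0.38 on the log2 scale (adjusted p = 5.44e-06). The J82 value rests on unlike controls, being 3.53 without J82 control replicate 1, and the TCCSUP call was lost without TCCSUP control replicate 2 (log2 0.77, adjusted p = 0.0768).

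TGFBR3, betaglycan, was also lower in 253J and higher in J82 and TCCSUP. In TCCSUP, it was at 2.45 and 2.37 CPM in control and at 22.2 and 21.996 CPM in treated cells, a 9.14-fold rise (log2 3.19 ± 0.29, adjusted p = 5.59e-07). In that cell line the replicates of each group were close together and the groups far apart. In 253J, it was at 33.8 and 42.0 CPM in control and at 13.3 and 21.0 CPM in treated cells, a 2.20-fold fall (log2 -1.14 ± 0.25, adjusted p = 0.00124). J82 went from 51.1 and 28.8 CPM to 79.9 and 64.6 CPM, a 1.81-fold rise (log2 0.86 ± 0.24, adjusted p = 0.00940), and RT112 held 109.7 and 122 CPM in control and 95.4 and 114 CPM in treated cells (adjusted p = 0.657). Control levels were highest in RT112, did not differ between J82 and 253J (adjusted p = 0.870) and were lowest in TCCSUP, 15.7-fold below 253J (adjusted p = 2.33e-08). The effect differed in all 6 pairs of cell lines (highest adjusted p 0.0442), with TCCSUP above 253J by 4.33 ± 0.38 on the log2 scale (adjusted p = 1.22e-06). In J82, the call was lost without J82 control replicate 3 (log2 0.50, adjusted p = 0.104) and the value rose to 1.33 without J82 control replicate 1. TGFB2 and TGFBR3 moved in opposite directions in TCCSUP.

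Per length, TGFBR1 made up most of the summed level of the 3 receptors in 253J, J82 and TCCSUP controls (59.1% to 91.3%), and TGFBR2 in RT112 (60.3% in both control libraries). TGFBR3 rose from 0.985% and 1.01% of the sum in TCCSUP controls to 13.0% and 13.4% with CM-1758, while TGFBR1 went from 88.5% and 91.3% to 61.7% and 60.0%. The share of TGFBR2 in J82 was 4.11% and 1.88% in control and 15.6% and 17.6% with CM-1758. In 253J, where all 3 receptors fell, their shares moved little, with TGFBR1 at 59.1% and 60.6% in control and at 56.0% and 59.9% with CM-1758.

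**Figure D2:**
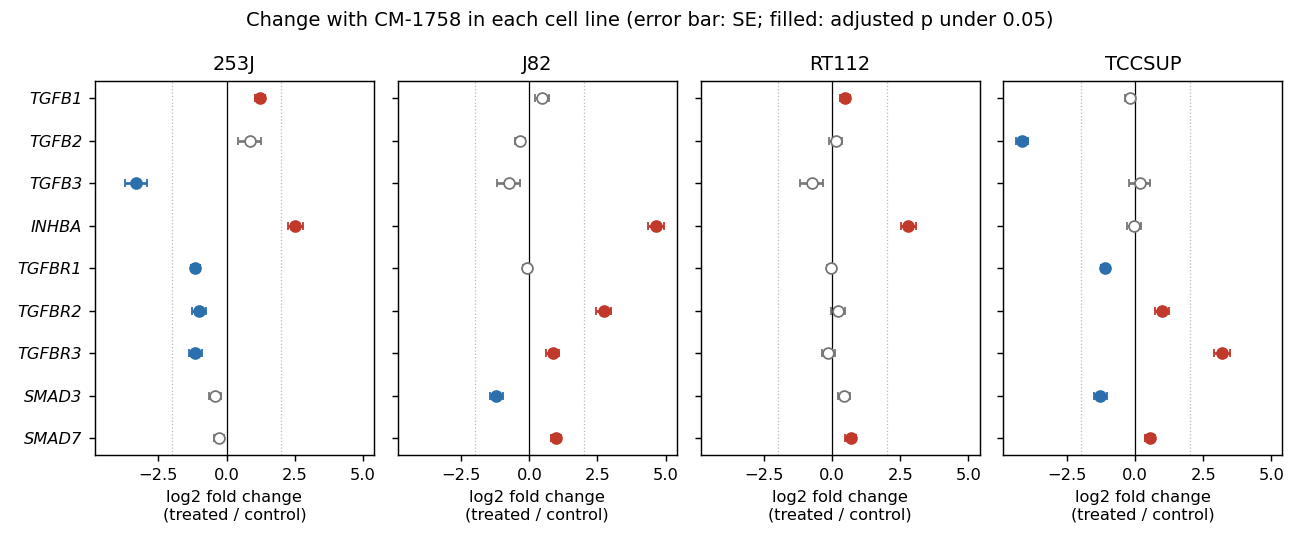
Log2 fold change of treated over control for each of the 9 genes in each cell line, with its SE as the error bar. Filled points are called at an adjusted p under 0.05 (red higher, blue lower), open points are not, and dotted lines mark 2 and -2. TGFBR2 and TGFBR3 lie left of 0 in 253J and right of 0 in J82 and TCCSUP.

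Among the SMADs, SMAD3, the transducer of TGF-beta and activin signals, fell in J82 and TCCSUP. In TCCSUP, it was at 82.2 and 87.6 CPM in control and at 35.1 and 35.3 CPM in treated cells, a 2.41-fold fall (log2 -1.27 ± 0.23, adjusted p = 2.84e-04). J82 went from 69.2 and 39.6 CPM to 28.7 and 18.3 CPM, a 2.31-fold fall (log2 -1.21 ± 0.23, adjusted p = 6.42e-04). In both cell lines every treated library lay below the controls. 253J held 94.4 and 100.4 CPM in control and 70.2 and 76.3 CPM in treated cells, and RT112 71.3 and 81.8 CPM in control and 95.4 and 110.0 CPM in treated cells, and neither passed the test (adjusted p = 0.140 and 0.132). RT112 differed from J82 by 1.63 ± 0.32 and from TCCSUP by 1.70 ± 0.32 on the log2 scale (adjusted p = 0.00191 and 0.00101), and the falls in J82 and TCCSUP did not differ beyond their spread (difference 0.06 ± 0.32, adjusted p = 0.9999). In controls, J82 was 1.79-fold below 253J and 1.56-fold below TCCSUP (adjusted p = 0.00526 and 0.0277) and 0 of the other 4 pairs called. The 2 uncalled changes passed the test without J82 control replicate 1 or 3 (highest adjusted p 0.0495) and when each cell line was fitted alone (log2 -0.42 in 253J and 0.43 in RT112, adjusted p = 0.0202 and 0.0148), and the J82 value was -0.75 without J82 control replicate 1.

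SMAD7, the inhibitory SMAD, was higher in J82, RT112 and TCCSUP. In J82, it was at 16.9 and 18.0 CPM in control and at 30.2 and 38.0 CPM in treated cells, a 1.96-fold rise (log2 0.97 ± 0.19, adjusted p = 8.01e-04). RT112 went from 8.598 and 9.997 CPM to 13.9 and 15.7 CPM, a 1.59-fold rise (log2 0.67 ± 0.20, adjusted p = 0.0106), and TCCSUP from 12.9 and 12.2 CPM to 18.6 and 18.2 CPM, a 1.46-fold rise (log2 0.55 ± 0.19, adjusted p = 0.0256). The groups did not overlap in any of the 3, and their rises did not differ beyond the spread (adjusted p from 0.313 to 0.845). 253J held 18.7 and 12.4 CPM in control and 14.2 and 11.7 CPM in treated cells (log2 -0.27 ± 0.19, adjusted p = 0.260), with overlap. The effect in 253J was below that in J82, RT112 and TCCSUP by 1.24, 0.94 and 0.82 on the log2 scale (adjusted p = 0.00274, 0.0168 and 0.0344). In controls, RT112 was 1.68-fold below 253J and 1.87-fold below J82 (adjusted p = 0.00436 and 0.00108), and 0 of the other 4 pairs was called. The TCCSUP call was lost without any of the 4 TCCSUP libraries (adjusted p from 0.0717 to 0.115), and the RT112 call without RT112 control replicate 1 or treated replicate 2 (adjusted p = 0.0906 and 0.0708).

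Read by cell line, 253J had all 3 receptors and TGFB3 lower and TGFB1 and INHBA higher. In J82, INHBA, TGFBR2, TGFBR3 and SMAD7 were higher and SMAD3 was lower. RT112 had INHBA, SMAD7 and TGFB1 higher and 0 of the 9 lower. In TCCSUP, TGFB2, TGFBR1 and SMAD3 were lower and TGFBR3, TGFBR2 and SMAD7 higher. The effect of CM-1758 differed between the 4 cell lines for 9 of 9 genes in an F test of the interaction, where 51.9% of all tested genes passed, and in 33 of 54 combinations of gene and pair of cell lines, where the share was 26.7% over all tested genes. Control levels differed in 34 of 54 combinations, against 52% over all tested genes. Of the 16 combinations that were not called, 9 had groups that did not overlap, among them TGFB2 in J82 and SMAD3 in 253J and RT112. The share of such groups over all tested genes was not computed, so nothing particular to the 9 genes is read from that count. A gene left out of these lists is not shown to have held its level.

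Across the 16 libraries, the genes whose log2 CPM ran most like each of the 9 were listed by Pearson correlation, without a test. The libraries come from 4 cell lines with and without CM-1758, and the part of each in the spread was not computed. PLBD1 (r = 0.985) and COL3A1 (r = 0.984), a fibrillar collagen, ran most like TGFB2. ZNF71 (0.981) ran most like TGFB1, BTG2 (0.975) like TGFBR2, IQSEC1 (0.968) like TGFBR3, PRNP (0.958) like TGFBR1, ASXL2 (0.939) like SMAD3, RNF145 (0.925) like TGFB3, MTMR6 (0.920) like SMAD7 and BCAM (0.890) like INHBA.

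The rest of the pathway was read in 7 lists of 97 genes, of which 92 were tested. NODAL, LEFTY2, TDGF1, CER1 and NOX4 did not pass the filter. In 253J, 32 of the 92 were higher and 29 lower, in J82 43 and 6, in RT112 34 and 8, and in TCCSUP 28 and 34. The shares of all tested genes called in each direction are those given for the 9 genes above. The median log2 fold change of the 92 was 0.01 in 253J and 0.52 in J82, with 0.32 in RT112 and 0.06 in TCCSUP. With genes that had no count in 1 group set at the bound that 3 counts per library give, and at 0 where both groups were at or under 3 counts, it was 0 in 253J and 0.52 in J82, with 0.31 in RT112 and 0 in TCCSUP. Of the 92, 26 were higher in some cell lines and lower in others. The shares of all tested genes called in opposite directions, or in the same direction in every cell line, were not computed. Nothing particular to the pathway is therefore read from such counts. With library size alone in place of TMM, TCCSUP had 36 higher and 27 lower, since that scaling raises the median of all genes by 0.27 in 253J and 0.15 in J82, with 0.15 in RT112 and 0.31 in TCCSUP on the log2 scale.

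**Figure D3:**
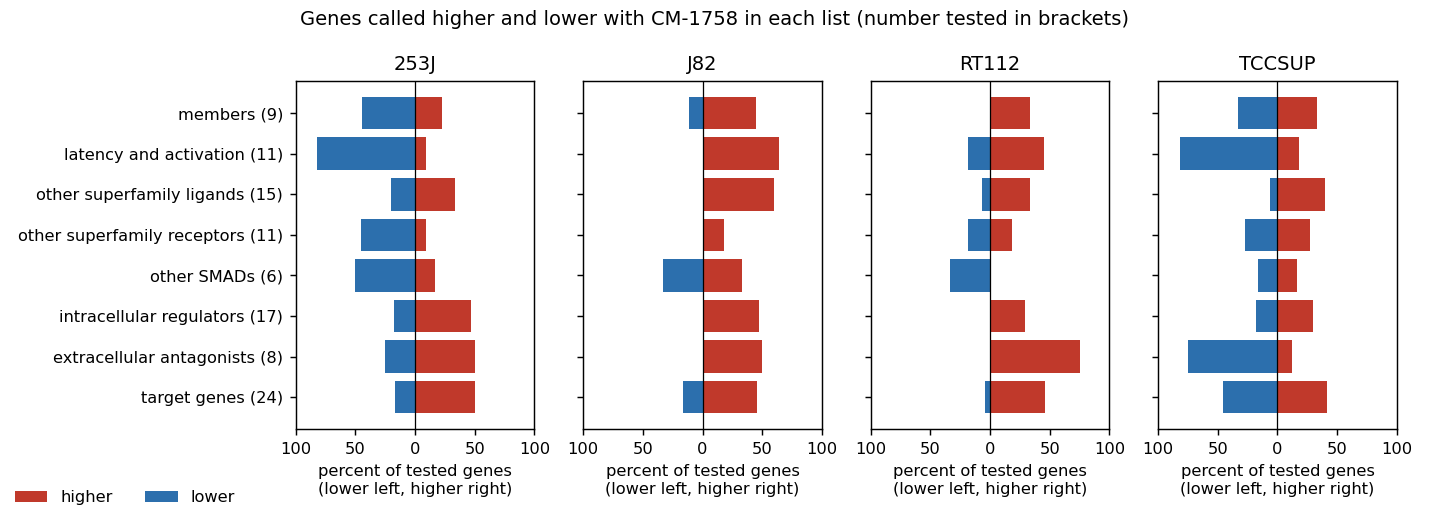
Percent of the tested genes of each list called higher (red, right) and lower (blue, left) with CM-1758 in each cell line, with the number tested in brackets. The latency and activation list had 9 of 11 genes lower in 253J and in TCCSUP and 0 of 11 lower in J82.

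Genes of latency and activation hold the ligand in the matrix or release it, and most fell in 253J and TCCSUP. In 253J, 9 of 11 were lower and 1 higher, in TCCSUP 9 lower and 2 higher, in J82 7 higher and 0 lower, and in RT112 5 higher and 2 lower, with medians of -1.92, -1.85, 1.20 and 0.54. ITGB6, the integrin subunit whose pairing with ITGAV activates latent TGF-beta, fell from 148 to 12.9 CPM in 253J (log2 -3.52 ± 0.25, adjusted p = 9.78e-08) and from 7.39 to 0.705 CPM in TCCSUP (log2 -3.37 ± 0.33). In J82, ITGB6 had 0 counts in both control libraries and 46 and 51 counts in treated ones, at least 15.1-fold higher against a floor of 3 counts per library. Its fall in RT112 (-0.59 ± 0.22, adjusted p = 0.0375) was lost in DESeq2, with RLE scaling or library size alone, and without J82 treated replicate 1, RT112 control replicate 1 or 2 or RT112 treated replicate 1 (highest adjusted p 0.253). ITGAV fell in 253J (log2 -1.73 ± 0.17) and TCCSUP (-2.19 ± 0.18) and rose in RT112 (0.81 ± 0.17). ITGB8, the other activating integrin subunit of the list, fell in 253J (-2.27 ± 0.34) and TCCSUP (-1.20 ± 0.33) and rose in J82 (2.47 ± 0.37) and RT112 (2.22 ± 0.35), and its TCCSUP call was lost without TCCSUP treated replicate 1 (adjusted p = 0.0667). THBS1, thrombospondin, fell from 5255 to 737 CPM in TCCSUP and from 2138 to 487 CPM in 253J and rose from 718 to 1646 CPM in J82 (adjusted p = 1.86e-06, 1.91e-05 and 0.00289). The latent binding proteins LTBP1 and LTBP2 fell in 253J (log2 -2.74 ± 0.16 and -2.40 ± 0.24) and TCCSUP (-1.27 ± 0.15 and -1.94 ± 0.25) and rose in J82 (0.65 ± 0.16 and 1.64 ± 0.34). In RT112, LTBP1 rose (0.54 ± 0.15) and LTBP2 fell (-1.02 ± 0.24). The J82 call of LTBP1 was lost when that cell line was fitted alone (adjusted p = 0.0564), and its RT112 call without RT112 control replicate 1 or treated replicate 2 (adjusted p = 0.0563 and 0.0978). LTBP4 fell in 253J (-1.12 ± 0.19) and rose in J82 (4.15 ± 0.30), RT112 (3.04 ± 0.22) and TCCSUP (0.84 ± 0.20), where the call was lost without TCCSUP treated replicate 2 (log2 0.59, adjusted p = 0.0536). FBN1, fibrillin, fell from 1709 to 127 CPM in TCCSUP and from 272 to 71.9 CPM in 253J (adjusted p = 1.86e-08 and 4.11e-06) and rose in RT112 (log2 0.89 ± 0.27), where the call was lost without RT112 control replicate 2 or treated replicate 2 (adjusted p = 0.0781 and 0.0680). The counts of this list in 253J and TCCSUP were the same with RLE scaling and with library size alone.

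Other ligands of the superfamily were called higher near the share of all tested genes in 253J, RT112 and TCCSUP, and above it in J82. Of 15 tested, 5 were higher and 3 lower in 253J, 9 and 0 in J82, 5 and 1 in RT112, and 6 and 1 in TCCSUP. Called higher were 33.3%, 60%, 33.3% and 40% of the list in that order, against 28.8%, 24%, 27.4% and 32% of all tested genes. Called lower were 20%, 0%, 6.67% and 6.67%, against 22.4%, 18.5%, 20.2% and 22.1%. INHA, lower in 253J, had only 2 and 6 counts in control and 0 in treated cells. With genes at 0 set at their bound, the medians were 0, 2.46, 0.60 and 1.13. BMP6, a bone morphogenetic protein, was higher in all 4 cell lines: from 0.316 to 17.5 CPM in J82 (log2 5.77 ± 0.29), from 0.214 to 11.7 CPM in TCCSUP (5.74 ± 0.31), from 3.24 to 28.5 CPM in RT112 (3.13 ± 0.22) and from 3.59 to 6.30 CPM in 253J (0.81 ± 0.21, adjusted p = 0.00515). The 253J call of BMP6 was lost without 253J control replicate 2 (adjusted p = 0.0790). GDF6 had 0 counts in RT112 controls and 36 and 35 counts in treated RT112 cells, at least 13.7-fold higher. INHBE, an activin subunit of liver, fell in 253J (log2 -4.07 ± 0.56) and TCCSUP (-2.58 ± 0.47) and rose in RT112 (2.81 ± 0.70), in each case to or from under 10 CPM. INHBA and INHBE thus moved in opposite directions in 253J.

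Of 11 other receptors tested, 1 was higher and 5 lower in 253J, 2 and 0 in J82, 2 and 2 in RT112, and 3 and 3 in TCCSUP. ACVR1C, a type I receptor of the activin and nodal branch, rose from 0.371 to 4.199 CPM in J82 (log2 3.48 ± 0.37) and from 0.663 to 10.3 CPM in TCCSUP (3.95 ± 0.34). In RT112, it had 3 and 0 counts in control and 112 and 156 counts in treated cells (adjusted p = 1.29e-07), and 253J held it at 11.4 and 11.6 CPM with no call. BMPR1B, a type I receptor for bone morphogenetic proteins, fell in 253J (log2 -2.22 ± 0.39) and RT112 (-2.07 ± 0.50) and rose in TCCSUP (3.33 ± 0.75) from 0.0791 to 0.827 CPM. The medians, with genes at 0 at their bound, were -1.05 in 253J and 0.29 in J82, with -0.01 in RT112 and 0 in TCCSUP.

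Of the 6 other SMADs, 1 was higher and 3 lower in 253J, 2 and 2 in J82, 0 and 2 in RT112, and 1 and 1 in TCCSUP. SMAD4, the common partner of the receptor SMADs, was, with TGFBI, 1 of 2 genes of the 92 that were lower in all 4 cell lines, and was named after its values were seen, being past the limit of 30 named genes. Its changes were small: log2 -0.38 ± 0.12 in 253J and -0.60 ± 0.12 in J82, with -0.68 ± 0.13 in RT112 and -0.44 ± 0.12 in TCCSUP (adjusted p = 0.0189, 0.00125, 4.52e-04 and 0.00853). With library size alone the 253J and TCCSUP values of SMAD4 were -0.11 and -0.12 and were not called (adjusted p = 0.482 and 0.396). Its J82 call was lost when that cell line was fitted alone (adjusted p = 0.0523). The TCCSUP call of SMAD4 was also lost with at least 10 counts in every library (adjusted p = 0.0517). Leaving out 253J control replicate 2 or either treated 253J library, or TCCSUP control replicate 2 or treated replicate 1, also ended the call in that cell line (adjusted p from 0.0612 to 0.106). Of 17 intracellular regulators, which tag receptors and SMADs for breakdown or repress their targets, 8 were higher and 3 lower in 253J, 8 and 0 in J82, 5 and 0 in RT112, and 5 and 3 in TCCSUP. Their medians ran from 0.13 to 0.37, and none of the 30 genes named by rule was among them. PMEPA1, FKBP1A and TGIF1 were called in opposite directions in different cell lines but came past the limit of 30.

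The extracellular antagonists, which bind ligands and keep them from receptors, split by cell line. Of 8 tested, 4 were higher and 2 lower in 253J, 4 and 0 in J82, 6 and 0 in RT112, and 1 and 6 in TCCSUP, with medians at the bound of 0.17, 0.96, 1.43 and -1.39. CHRD, chordin, was higher in all 4 cell lines, from 0.923 to 13.2 CPM in J82 (log2 3.82 ± 0.36), from 0.1997 to 8.31 CPM in RT112 (5.35 ± 0.44) and from 0.150 to 0.643 CPM in 253J (2.09 ± 0.55). In TCCSUP, CHRD had 2 and 0 counts in control and 131 and 130 counts in treated cells (adjusted p = 2.51e-07). The 253J call of CHRD was lost without 253J control replicate 2 or treated replicate 3 (adjusted p = 0.0556 and 0.0644). FST, follistatin, which binds activin, fell from 93.8 to 23.9 CPM in TCCSUP (log2 -1.98 ± 0.45, adjusted p = 0.00189) and rose in J82 and RT112 (1.56 ± 0.52 and 1.55 ± 0.52, adjusted p = 0.0247 and 0.0242). The J82 call of FST was lost without J82 control replicate 3 or treated replicate 1 (log2 0.84 and 0.80). It was also lost when that cell line was fitted alone (adjusted p = 0.0941). The RT112 call of FST was lost without any of the 4 RT112 libraries. NOG, noggin, fell in 253J (-2.30 ± 0.30) and TCCSUP (-1.67 ± 0.30) and rose in RT112 (1.31 ± 0.36), where the call was lost without control replicate 1 or treated replicate 1 (adjusted p = 0.0798 and 0.0600). The proteoglycan DCN, decorin, fell from 278 to 23.9 CPM in TCCSUP (-3.54 ± 0.28, adjusted p = 2.21e-07) and was under 2 CPM in each group of the other cell lines, where it rose in RT112 from 0.116 to 1.55 CPM (3.68 ± 0.62). GREM1 rose in RT112 from 0.8001 to 2.36 CPM (1.56 ± 0.38, adjusted p = 0.00399) and fell in TCCSUP from 43.0 to 24.2 CPM (-0.83 ± 0.28), a call lost with library size alone (adjusted p = 0.146) and without TCCSUP control replicate 1 or 2 or treated replicate 1 (highest adjusted p 0.181). BGN fell there from 2.84 to 0.673 CPM (-2.07 ± 0.71). That call was lost in DESeq2 and with library size alone (adjusted p = 0.225 and 0.0560), and without any of the 4 TCCSUP libraries. BGN was higher in J82, from 0 to 0.404 CPM, at least 3.62-fold (adjusted p = 0.0102).

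Among the target genes, the counts in TCCSUP were split and elsewhere more were higher than lower, as over all tested genes. Of 24 tested, 12 were higher and 4 lower in 253J, 11 and 4 in J82, 11 and 1 in RT112, and 10 and 11 in TCCSUP, with medians of 1.01, 0.69, 0.55 and -0.07. Called higher were 50%, 45.8%, 45.8% and 41.7% of the list in that order, against 28.8%, 24%, 27.4% and 32% of all tested genes. Called lower were 16.7%, 16.7%, 4.17% and 45.8%, against 22.4%, 18.5%, 20.2% and 22.1%. ID2, a regulator of differentiation that bone morphogenetic proteins induce, was higher in all 4 cell lines, from 4.19 to 500.3 CPM in 253J (log2 6.90 ± 0.30, adjusted p = 1.93e-09), from 5.10 to 113 CPM in TCCSUP (4.47 ± 0.28), from 19.3 to 84.9 CPM in RT112 (2.14 ± 0.24) and from 4.77 to 11.9 CPM in J82 (1.32 ± 0.26). CCN2, a matricellular protein, was also higher in all 4, by log2 3.20 ± 0.39 in 253J and 2.36 ± 0.38 in J82, with 4.62 ± 0.44 in RT112 and 1.20 ± 0.37 in TCCSUP, the last call being lost without TCCSUP control replicate 1 or treated replicate 1 (adjusted p = 0.119 and 0.183). SNAI1, a repressor of epithelial genes, rose by log2 3.11 ± 0.49 in 253J and 2.38 ± 0.64 in J82, with 5.56 ± 0.62 in RT112 and 2.33 ± 0.46 in TCCSUP, from under 3 CPM in each control group, and its J82 call was lost when that cell line was fitted alone (adjusted p = 0.0800). ANGPTL4, named after its values were seen, was higher in all 4 cell lines, as were BMP6, CHRD, CCN2, ID2 and SNAI1, and its RT112 call (adjusted p = 0.04998) was lost with no filter on low counts and without any of the 4 RT112, 4 TCCSUP or 4 253J libraries (highest adjusted p 0.236). The TCCSUP call of ANGPTL4 was lost without TCCSUP control replicate 1 or 2 or treated replicate 1 (highest adjusted p 0.107). TGFBI, a secreted adhesion protein, was lower in all 4, by log2 -2.44 ± 0.23 in 253J and -0.75 ± 0.22 in J82, with -1.72 ± 0.22 in RT112 and -2.07 ± 0.22 in TCCSUP. Its J82 call was lost without J82 treated replicate 3 (log2 -0.37) and when that cell line was fitted alone (adjusted p = 0.0794).

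In TCCSUP, 6 other target genes named by rule were lower. TAGLN, transgelin, went from 375 to 9.84 CPM (log2 -5.25 ± 0.35, adjusted p = 2.86e-08), ACTA2, smooth muscle actin, from 83.8 to 2.13 CPM (-5.29 ± 0.28, adjusted p = 3.73e-09), and CALD1, caldesmon, from 681 to 75.0 CPM (-3.18 ± 0.23, adjusted p = 5.28e-08). COL1A1 and COL1A2, the chains of type I collagen, went from 988 to 99.1 CPM (-3.32 ± 0.20) and from 5203 to 256 CPM (-4.34 ± 0.25), and FN1, fibronectin, from 4235 to 1709 CPM (-1.31 ± 0.17). In J82, TAGLN fell as well (-2.33 ± 0.34), as did COL1A2 (-0.87 ± 0.22), while FN1, COL1A1 and CALD1 rose (1.79 ± 0.18, 2.27 ± 0.23 and 0.93 ± 0.21). In RT112, FN1, COL1A1, CALD1 and ACTA2 rose (0.79 ± 0.17, 2.18 ± 0.21, 0.99 ± 0.22 and 1.05 ± 0.29), and in 253J, CALD1 and COL1A1 fell (-1.49 ± 0.21 and -0.76 ± 0.20). The call of COL1A1 in 253J was lost with library size alone (adjusted p = 0.0586), that of COL1A2 in J82 without J82 control replicate 1 or treated replicate 3 (adjusted p = 0.0603 and 0.0681), and that of ACTA2 in RT112 without RT112 control replicate 2 or treated replicate 2 (adjusted p = 0.103 and 0.0762). COL1A2 and DCN are also in the list of fibroblast and mesenchymal markers, whose summed level was lower in the same TCCSUP libraries. The part of that difference in the other changes of TCCSUP was not tested.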

How the data were processed

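RNA was sequenced from 16 libraries of 4 bladder cancer cell lines. Per the labels, the authors used HISAT2 and StringTie with GRCh37, without stated versions or roles. They deposited 1 table of raw counts per gene symbol. The kit was stranded, and the strand setting of the counting is not given in the sources used here. All 16 columns were matched to samples by title.

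The 9 genes and the gene lists were chosen with earlier results of these data known. Counts were fitted with edgeR 4.0.16 (R 4.3.3), with 1 mean per group of cell line and treatment, TMM factors and filterByExpr, which kept 21297 of 35993 symbols (5098 had no count), leaving 8 residual degrees of freedom. The quasi-likelihood test compared treated with control in each cell line, control levels between cell lines, and effects between cell lines (interaction), with Benjamini-Hochberg adjustment per contrast. SE was the log2 fold change divided by the root of its F statistic. The study used DESeq2, which was an alternative here (1.42.0). Levels of different genes were divided by GENCODE exon lengths (GRCh38), another build than the authors' and used for lengths only. Promoters came from RefSeq (GRCh38.p14). The model fit was tested on simulated counts.

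Named were all 9 genes and at most 30 pathway genes: those called in opposite directions in different cell lines, per cell line the 3 largest and 3 smallest called changes with no overlap of replicates and a mean of at least 1 CPM, then those called the same way in all 4 cell lines, in order of mean absolute log2 fold change. A floor of 3 counts per library bounds folds against groups at 0. Bounds cover counting error only. Alternatives were other scalings, filters and thresholds, DESeq2, each cell line alone, a replicate block, leaving out 7 small noncoding RNA genes, and leaving out each library in turn. The protein sequences were not used here. Of the genes this rule gives, 1 is not reported here.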

Additional observations from a re-analysis of the deposited data

Results flagged for a closer look

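The effect of CM-1758 differed between the 4 cell lines for each of the 9 genes in edgeR's F test of the interaction, at which 51.9% of all tested genes passed. The adjusted p was 1.09e-07 for TGFB2, 1.81e-06 for INHBA, 2.73e-06 for TGFBR3, 1.42e-05 for TGFBR2, 3.47e-04 for TGFBR1, 6.84e-04 for TGFB3, 0.00116 for SMAD3, 0.00241 for TGFB1 and 0.00755 for SMAD7. TGFB2 was at log2 -4.15 in TCCSUP, and INHBA at 4.65 in J82 beside -0.04 in TCCSUP. TGFBR2 and TGFBR3 were lower in 253J and higher in J82 and TCCSUP.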

How the results depend on the processing

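No called change of the 9 genes turned its direction under any alternative run, and the calls lost under an alternative other than the study's thresholds were TGFB1 and SMAD7 in RT112, TGFBR2 and SMAD7 in TCCSUP and TGFBR3 in J82, with the libraries given beside each result. TGFB2 had 6 counts in 253J control replicate 2, so its fall in TCCSUP was not tested with at least 10 counts in every library.

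Changes that turned their sign were uncalled with all libraries and where they turned. With library size alone, TGFB1 in TCCSUP was at log2 0.11, INHBA in TCCSUP at 0.27, TGFBR1 in J82 at 0.075 and in RT112 at 0.11, TGFBR3 in RT112 at 0.0030 and SMAD7 in 253J at 0.0030. INHBA in TCCSUP was at 0.0075 in DESeq2, 0.0069 with RLE scaling and 0.11 with at least 10 counts in every library, TGFBR1 in J82 at 0.015, 0.015 and 0.038, and TGFBR1 in RT112 at 0.039, 0.039 and 0.089. Leaving out 1 library gave a range from -0.12 to 0.41 for TGFB2 in RT112 (also -0.091), from -0.34 to 0.21 for INHBA in TCCSUP, from -0.23 to 0.13 for TGFBR1 in J82, from -0.079 to 0.0013 for TGFBR1 in RT112 and from -0.54 to 0.053 for SMAD7 in 253J. SMAD7 in 253J was called at -0.54, without 253J control replicate 3 (adjusted p = 0.0419). The cause was not tested.

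At the study's thresholds, the 9 genes gave 1 higher and 1 lower in 253J, 2 and 0 in J82, 1 higher in RT112, and 1 and 1 in TCCSUP. The 92 pathway genes gave 12 higher and 9 lower in 253J, 20 and 1 in J82, 15 and 1 in RT112, and 15 and 14 in TCCSUP, with 6 called in both directions, 2 higher in all 4 cell lines and 0 lower in all 4. Effects then differed in 15 and control levels in 18 of 54 combinations. Pathway genes higher in all 4 numbered 10 in DESeq2 and 11 with library size alone. Those lower in all 4 numbered 1 with library size alone, 1 with at least 10 counts in every library and 0 with each cell line alone. With at least 10 counts, fewer genes were tested, 21 were lower in TCCSUP and 17 were called in both directions.

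Leaving out 1 library at a time gave 1 to 4 of the 9 genes higher and 0 to 1 lower in RT112, 1 to 3 higher in TCCSUP, and 3 to 8 of the pathway genes higher (3 without 253J control replicate 2) and 1 to 2 lower in all 4 cell lines. Of the called values of 32 pathway genes, 1618 kept their call and 62 lost it when 1 library was left out.

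Whether equal replicate numbers mark the same experiment is not stated, and the main fit took the libraries as unpaired. Deviations from group means correlated at 0.218 in J82, 0.0427 in RT112 and 0.0173 in TCCSUP between same-numbered libraries. The numbers of 253J differ between control and treated cells, and it was not checked. With a replicate block, which leaves 3 residual degrees of freedom, 10 pathway genes were lower in J82 and 1 in all 4 cell lines, and SMAD3 was called in 253J and RT112 (log2 -0.40 and 0.42), while BMP6, CHRD and SMAD4 in 253J were not (adjusted p = 0.125, 0.0528 and 0.122). With the whole 300-base window, TGANTCA was in 2 of 24 starts.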
